A study of Canis lupus familiaris with 8 samples.

Results

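Matrilins are the family of secreted matrix proteins encoded by MATN1, MATN2, MATN3 and MATN4, and their transcripts were measured here in dog alveolar bone, the jaw bone in which the teeth are seated. The 4 genes were chosen by family, with results of these data in view: MATN3 had the largest deficit relative to sound bone in every group of defect tissue. All 4 were measured, out of 15947 genes with a gene symbol of their own on the array, each by 1 probe set, a collection of short oligonucleotides whose signals are summarised into a single value. The study asked how moving a tooth into a healing surgical bone defect alters gene expression there. Group DT6 was tissue regenerated in the defect together with the bone beside it, around the root of the maxillary second premolar, at 6 weeks, with a tooth moved forward (protraction). Group D6 was such tissue at 6 weeks, and group D2 at 2 weeks, both without protraction, and group C was sound bone around the roots of maxillary premolars. The digits in the group names were read as weeks after surgery. Each group had 2 arrays. The labels name no breed or age and do not tie arrays to dogs, so p-values reflect spread among arrays only, and that spread may be technical. The defect groups combine new tissue with adjacent old bone, in proportions that were not measured.

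Matrilins are adaptor proteins of the extracellular matrix. Their von Willebrand factor A domains bind other matrix proteins, epidermal growth factor-like repeats space them, and a coiled coil at the C terminus joins subunits into oligomers. Through collagens, cartilage oligomeric matrix protein (COMP) and the small proteoglycans decorin and biglycan, they link collagen fibrils to the rest of the matrix. In mice and humans MATN1 and MATN3 are known mainly from cartilage, where their products can form mixed oligomers, and MATN3 is also made in developing bone. MATN2 and MATN4 are found in a wider range of connective tissues, and MATN2 in mice also along peripheral nerve. In humans, mutations of MATN3 cause multiple epiphyseal dysplasia, a disorder of the growing ends of bones.

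Arrays of a group correlated across genes with r of 0.974 to 0.986, and the array medians lay between 6.25 and 6.31 on the log2 scale of the deposited values. Bone matrix genes were bright on all 8 arrays: COL1A1, the main chain of bone collagen, lay between 13.00 and 13.72 log2, and IBSP, bone sialoprotein, between 10.02 and 12.19 log2. Epithelial transcripts set some arrays apart. The mean log2 value of 15 airway epithelium genes was 8.907 to 9.003 in DT6, 5.001 to 5.604 in D6, 8.58 to 9.37 in D2 and 5.13 to 5.43 in C. The mean over 19 oral epithelium genes was 8.73 in D6 array 1 and 7.69 in D2 array 2, and 5.43 to 5.84 in the other 6 arrays.

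MATN3 was by far the most variable matrilin. Its probe set, 14306950, had 4.50 and 5.38 log2 in DT6, 5.46 and 7.04 log2 in D6, 4.96 and 5.40 log2 in D2, and 10.12 and 10.08 log2 in C. The C arrays were nearly equal and stood above every defect array, and among the defect arrays D6 array 2 was the highest and DT6 array 1 the lowest. The group means were 4.94 ± 0.63 log2 in DT6, 6.25 ± 1.12 log2 in D6, 5.18 ± 0.31 log2 in D2 and 10.10 ± 0.03 log2 in C (SD, n = 2 each). Because MATN3 was singled out for this deficit, its differences from C are given without a test. They were −5.16 ± 0.46 log2 in DT6 (35.7-fold lower), −3.85 ± 0.46 log2 in D6 (14.4-fold lower) and −4.92 ± 0.46 log2 in D2 (30.3-fold lower), each with the standard error (SE) of limma's moderated fit for 2 arrays against 2. In whole tissue, fewer cells that make MATN3 and less MATN3 RNA per cell cannot be told apart.

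**Figure D1:**
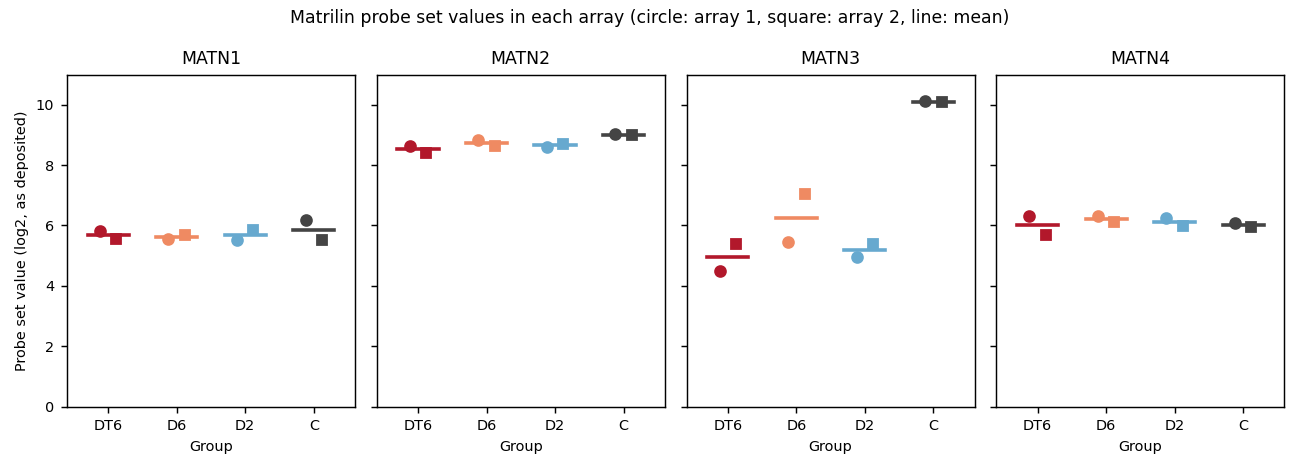
Probe set values of the 4 matrilins in each array, on the log2 scale as deposited, with groups DT6, D6, D2 and C from left to right; circles are array 1, squares are array 2 and lines are the means of 2 arrays. MATN3 lies at 10.12 and 10.08 in C and at 7.04 or less in all 6 defect arrays, while the values of the other 3 matrilins lie close together over all 8 arrays.

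The size of the MATN3 deficit depended on the array mainly in D6. With any single array left out, the difference ran from −5.60 to −4.71 log2 in DT6 and from −5.14 to −4.70 log2 in D2. In D6 it was −3.06 log2 without array 1 and −4.64 log2 without array 2. The D6 arrays differed from each other by 1.58 log2 for MATN3, against a median of 0.15 log2 over all genes. A gap at least as wide between the D6 arrays was seen in 113 of 15947 genes (0.709%). In DT6 the replicate gap of MATN3 was 0.89 log2, reached by 3.47% of genes, in D2 it was 0.44 log2, reached by 7.47%, and in C it was 0.04 log2, reached by 90.2%.

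The gene with the next lowest difference from C was not the same in the 3 groups. In DT6 the gene after MATN3 was GPHA2, a glycoprotein hormone subunit, at −3.37 ± 0.54 log2. In D6 it was FMO2, a flavin-containing monooxygenase, at −3.47 ± 0.68 log2, and in D2 it was DMP1, a matrix protein of osteocytes and dentin, at −3.98 ± 1.93 log2. AMELX, the enamel protein amelogenin, was among the 6 lowest in all 3 groups, at −2.82 ± 0.43 log2 in DT6, −2.96 ± 0.43 log2 in D6 and −2.91 ± 0.43 log2 in D2. Across all genes, 1682 (10.5%) had both C arrays above all 6 defect arrays, and in 16 of them the gap was at least 1 log2. MATN3, with a gap of 3.04 log2, was the only gene with a gap of 2 log2 or more, and AMELX was next with 1.84 log2. These ranks describe the choice of the gene and are not a test of it.

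**Figure D2:**
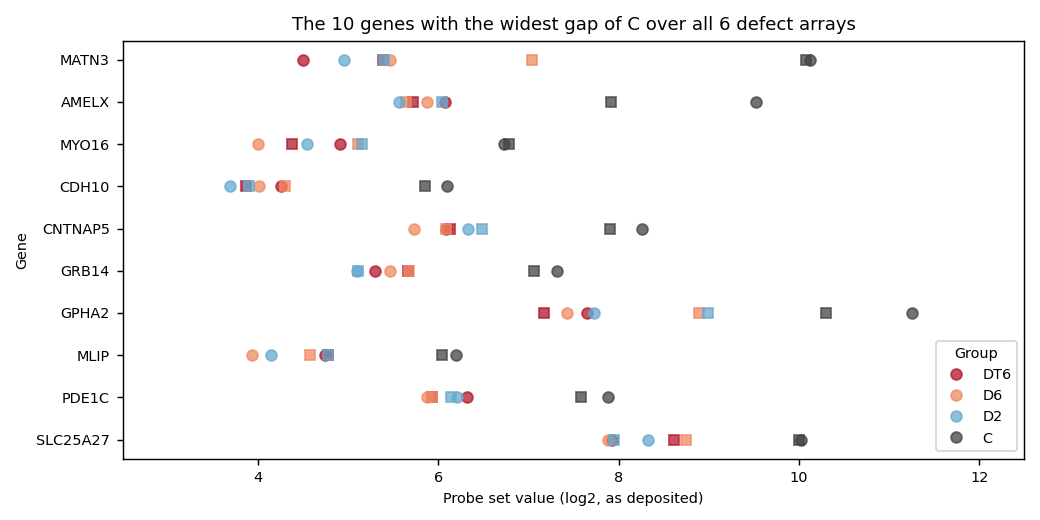
Log2 probe set values, as deposited, of the 10 genes with the widest gap between the lower C array and the highest of the 6 defect arrays; colours mark the groups, circles are array 1 and squares are array 2. MATN3 has the widest gap, 3.04 log2, followed by AMELX with 1.84 log2.

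MATN2, the matrilin of wider connective tissue distribution, was lower in all 6 defect arrays than in both C arrays, by a small margin. Its values were 8.63 and 8.42 log2 in DT6, 8.82 and 8.63 log2 in D6, 8.59 and 8.71 log2 in D2, and 9.024 and 8.999 log2 in C. The highest defect array lay 0.18 log2 below the lower C array. Taken one group at a time, both arrays lay below both C arrays in 19.5% of all genes for DT6, 22.7% for D6 and 28.4% for D2. The differences were −0.49 ± 0.14 log2 in DT6, −0.29 ± 0.14 log2 in D6 and −0.36 ± 0.14 log2 in D2 against C, or 1.40-fold, 1.22-fold and 1.29-fold lower. They are given without a test, since the comparison with C entered the choice of the family. With any single array left out they stayed below 0, between −0.60 and −0.19 log2 over the 3 groups. Of 9 measured Schwann cell and nerve genes, among whose cells MATN2 is known in mice, the Schwann cell cadherin CDH19 had a difference of −1.98 ± 0.29 log2 in D6 (adjusted p = 0.0202, limma) and −1.56 ± 0.29 log2 in D2 (adjusted p = 0.015, limma) against C, a fall in both. PMP22, a myelin protein, fell in D2 by 0.93 ± 0.24 log2 (adjusted p = 0.0465, limma). Without D2 array 2 and D6 array 1, CDH19 and MBP, myelin basic protein, fell in D2, while PMP22 in D2 and CDH19 in D6 did not pass. Genes that fell made up 0.771% of all genes in D6 and 2.74% in D2. No gene of the list passed in DT6 against C (3 had an unadjusted p under 0.05, limma), beside 3.04% of all genes. There CDH19 differed by −1.16 ± 0.29 log2 and the MATN2 difference was widest. The mean log2 value of the list was 7.17 and 7.32 in DT6, 6.86 and 6.97 in D6, 6.99 and 7.18 in D2, and 7.60 and 7.44 in C. Its part in the MATN2 values was not tested.

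MATN1, the partner of MATN3 in cartilage, overlapped between all groups. Its values were 5.81 and 5.54 log2 in DT6, 5.54 and 5.67 log2 in D6, 5.51 and 5.86 log2 in D2, and 6.20 and 5.53 log2 in C. The C arrays alone spanned 0.67 log2, more than any of the group differences, which were −0.19 ± 0.24 log2 in DT6, −0.25 ± 0.24 log2 in D6 and −0.17 ± 0.24 log2 in D2 against C. Without C array 1 all 3 turned positive, at 0.15, 0.08 and 0.16 log2.

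MATN4 likewise overlapped between most groups. It had 6.33 and 5.70 log2 in DT6, 6.30 and 6.12 log2 in D6, 6.23 and 5.98 log2 in D2, and 6.09 and 5.94 log2 in C. Only in D6 did both arrays lie above both C arrays, by 0.03 log2. An arrangement with D6 above C held for 25.8% of all genes. Its differences from C were 0.00 ± 0.22 log2 in DT6, 0.20 ± 0.22 log2 in D6 and 0.09 ± 0.22 log2 in D2. In DT6 the difference was −0.32 log2 without array 1 and 0.32 log2 without array 2. No detection call was used here, so the distance of the MATN1 and MATN4 values, and of the MATN3 values in defect tissue, from background is not known. Brightness also depends on the probes, so the levels of different matrilins were not compared.

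The comparisons between defect groups were not used by the rule that chose the family and were tested with limma over all 15947 genes, with Benjamini-Hochberg adjustment and a threshold of 0.05. DT6 against D6 asks what tooth protraction changed at 6 weeks. MATN3 was lower in DT6 by 1.31 ± 0.46 log2, or 2.48-fold, with a 95% interval of the difference from −2.36 to −0.26 log2, and the DT6 arrays lay just below the D6 arrays, by 0.08 log2. An order with both DT6 arrays below both D6 arrays was seen in 15.4% of all genes. The difference did not pass over all genes (unadjusted p = 0.02, adjusted p = 0.504, limma), in a comparison where 1.52% of genes passed. Its size depended on the D6 arrays. Without D6 array 1 the difference was −2.10 log2 (adjusted p = 0.0258, limma), and without D6 array 2 it was −0.52 log2 (adjusted p = 1.00, limma). In these fits the lone D6 array is assumed to vary like the other groups.

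D6 against D2 asks what differed between 6 and 2 weeks of healing without tooth movement. MATN3 was higher in D6 by 1.07 ± 0.46 log2, or 2.11-fold, with a 95% interval from 0.03 to 2.12 log2, and the arrays did not overlap, by 0.07 log2. An order with D6 above D2 was seen in 23.5% of all genes. The difference did not pass (unadjusted p = 0.0457, adjusted p = 0.615, limma), in a comparison where 1.68% of genes passed. Without D6 array 1 it was 1.86 log2 (adjusted p = 0.0395, limma), and without D6 array 2 it was 0.28 log2 (adjusted p = 1.00, limma). These 2 comparisons share the D6 arrays, so the same 2 values enter both.

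DT6 against D2 compares the protracted site at 6 weeks with the defect at 2 weeks. MATN3 differed by −0.24 ± 0.46 log2 (95% interval −1.29 to 0.81, adjusted p = 0.999, limma) and the arrays overlapped. No gene of 15947 passed in that comparison (0%, limma), although 992 had an unadjusted p under 0.05, and no gene passed without the variance trend either.

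The other 3 matrilins did not pass in any of the 3 comparisons between defect groups (adjusted p of at least 0.981, limma). MATN2 differed by −0.20 ± 0.14 log2 in DT6 against D6 (95% interval −0.51 to 0.11), with DT6 array 1 at the level of D6 array 2, and by 0.08 ± 0.14 log2 in D6 against D2 (95% interval −0.23 to 0.38). MATN4 differed by −0.20 ± 0.22 log2 in DT6 against D6 (95% interval −0.70 to 0.30) and by 0.11 ± 0.22 log2 in D6 against D2 (95% interval −0.39 to 0.61). MATN1 differed by 0.07 ± 0.24 log2 (95% interval −0.48 to 0.61) and −0.08 ± 0.24 log2 (95% interval −0.63 to 0.47) in the same comparisons. In DT6 against D2 the differences were −0.13 log2 for MATN2 (95% interval −0.44 to 0.18), −0.09 log2 for MATN4 (95% interval −0.59 to 0.41) and −0.01 log2 for MATN1 (95% interval −0.56 to 0.53). Changes within these intervals cannot be told from no change with 2 arrays a group.

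**Figure D3:**
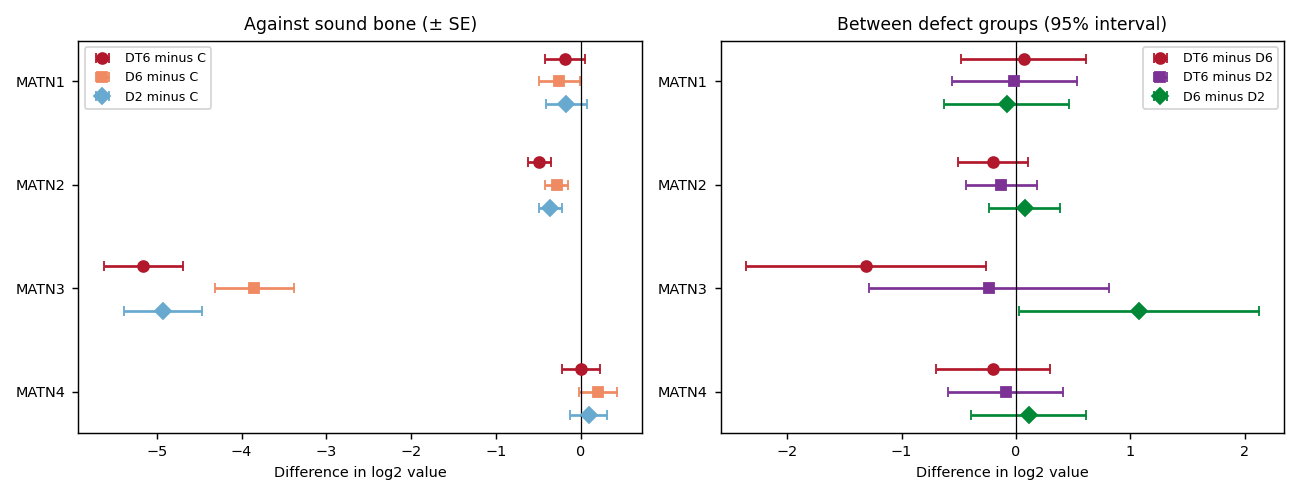
Differences in log2 value for the 4 matrilins; on the left each defect group minus C with the SE of limma's fit, given without a test, and on the right the differences between defect groups with 95% intervals. On the left MATN3 lies between −5.16 and −3.85 and the other members between −0.49 and 0.20; on the right the unadjusted intervals of MATN3 leave out 0 in DT6 minus D6 and D6 minus D2, and neither passed after adjustment over all genes.

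Epithelial and osteocyte transcripts are given beside MATN3, since they too varied between arrays, though each list in its own pattern. The airway epithelium list was high in DT6 and D2, the groups with the lower MATN3 means, and low in D6 and C. Of its 15 genes, 13 rose in DT6 against D6 and 13 fell in D6 against D2, where 1.32% of all genes rose and 1.47% fell. BPIFA1, secreted by airway lining cells, led both, with differences of 6.94 ± 0.54 log2 in DT6 against D6 (adjusted p = 0.000427, limma) and −6.48 ± 0.54 log2 in D6 against D2 (adjusted p = 0.000437, limma). The part of these transcripts in the MATN3 differences between defect groups was not tested. Against C, MATN3 was also lower in both D6 arrays, where the airway list was at the level of C. The oral epithelium list was high in D6 array 1 and D2 array 2. In DT6, with that list at 5.83 and 5.75 log2 against 5.84 and 5.59 log2 in C, MATN3 had 4.50 and 5.38 log2. The mean log2 value of 8 osteocyte genes was 8.57 and 7.80 in DT6, 7.63 and 8.50 in D6, 7.31 and 7.47 in D2, and 8.48 and 8.67 in C. Of these genes 2 rose and none fell in DT6 against C, 2 rose and 1 fell in D6, and 2 rose and 3 fell in D2 (limma), beside 2.29%, 0.985% and 5.66% of all genes that rose. Unadjusted p was under 0.05 for 5 of the 8 in DT6 (limma), and 0.771% of all genes fell in D6 and 2.74% in D2. The risers were PDPN and CAPG in each group. MEPE, a matrix protein of osteocytes, fell in D6 and D2, and RELN and SOST, whose product inhibits bone formation, fell in D2. MEPE had 10.03 and 10.14 log2 in DT6, 9.67 and 9.13 log2 in D6, 8.57 and 8.88 log2 in D2, and 11.17 and 10.85 log2 in C. It too was highest in C, an order seen in 10.5% of all genes. Of the 8 osteocyte genes, 6 had a difference from C below 0 in each of the 3 groups. The list medians were −0.70 log2 in DT6, −0.95 log2 in D6 and −1.17 log2 in D2, beside medians of all genes of −0.01, 0.01 and −0.01 log2. The order of MEPE was not shared by every gene of the list. PDPN and CAPG rose, and DMP1 had 12.25 and 6.23 log2 in DT6 and 6.82 and 11.84 log2 in D6. The DMP1 values were 6.40 and 6.89 log2 in D2 and 9.63 and 11.62 log2 in C. Without D2 array 2 and D6 array 1, MEPE and RELN also fell in DT6, and CAPG passed in DT6 alone and PDPN in DT6 and D2. The mean of 9 adipocyte genes was 7.92 and 8.92 log2 in DT6, 7.54 and 6.55 log2 in D6, 7.50 and 7.53 log2 in D2, and 8.56 and 8.49 log2 in C. It was highest in DT6 array 2. All 9 adipocyte genes had a difference from C below 0 in D6 and in D2, and 6 had one in DT6. Of them 3 fell in D6 and 3 in D2, where 0.771% and 2.74% of all genes fell, and none passed in DT6 (limma). In DT6 against D6 1 of the 9 rose, DGAT2, where 1.32% of all genes rose. The mean of 7 genes of enamel and cementum, among them AMELX, was 5.09 and 4.58 log2 in DT6, 4.88 and 5.07 log2 in D6, 5.12 and 5.43 log2 in D2, and 5.87 and 5.56 log2 in C. Without AMELX, a choice made after seeing the values, the other 6 averaged 4.92 and 4.39 log2 in DT6, 4.71 and 4.97 log2 in D6, 5.05 and 5.32 log2 in D2, and 5.27 and 5.17 log2 in C, and the C arrays were not above D2 array 2. Of 8 periodontal ligament and tendon genes, THBS4 fell against C in all 3 groups and KERA in D2 (limma). Of 7 blood progenitor genes, KIT fell in D6 and D2 and MECOM rose in D2, and none of 9 skeletal muscle genes passed (limma). Over all genes 3.04% passed in DT6 against C, 1.76% in D6 and 8.4% in D2. The part of any of these lists in the MATN3 deficit against C was not tested.

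**Figure D4:**
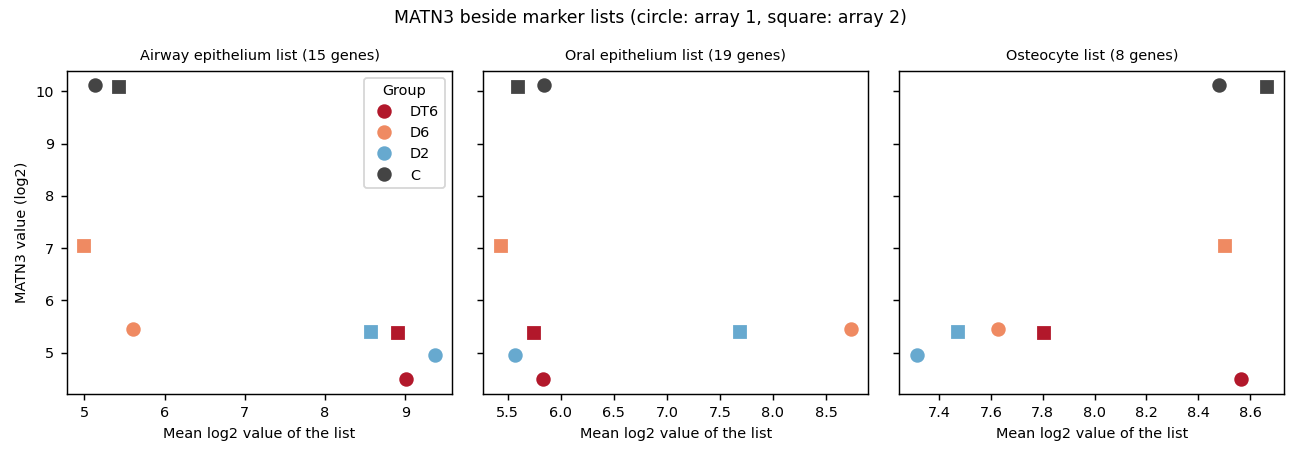
MATN3 log2 value in each array against the mean log2 value of 15 airway epithelium, 19 oral epithelium and 8 osteocyte genes; colours mark the groups, circles are array 1 and squares are array 2. The C arrays sit at 10.12 and 10.08 in every panel, and all 6 defect arrays have MATN3 values of 7.04 or less.

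The MATN3 deficit was set beside the other genes of cartilage matrix. Of 20 measured cartilage matrix genes, which do not include the matrilins, none passed in DT6 or D6 against C, and in D2 against C 2 rose and 1 fell, in limma (5 had an unadjusted p under 0.05 in D2, 4 in D6 and 3 in DT6). Over all genes, 3.04% passed in DT6 against C, 1.76% in D6 and 8.4% in D2 (5.66% rose and 2.74% fell). The list medians were −0.08 log2 in DT6, 0.04 log2 in D6 and −0.06 log2 in D2, beside medians of all genes of −0.01, 0.01 and −0.01 log2.

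ACAN, the core protein of the proteoglycan aggrecan, was higher in defect tissue. It had 8.57 and 7.43 log2 in DT6, 8.15 and 8.62 log2 in D6, 9.68 and 8.91 log2 in D2, and 6.29 and 6.93 log2 in C. Every defect array was above both C arrays, an order that held for 22.1% of all genes in DT6, 25.8% in D6 and 27.9% in D2 taken one group at a time. ACAN rose in D2 by 2.68 ± 0.40 log2 (adjusted p = 0.00571, limma). HAPLN1, which ties aggrecan to hyaluronan, rose in D2 by 1.60 ± 0.38 log2 (adjusted p = 0.0361, limma), and MIA, a small secreted protein of chondrocytes, fell in D2 by 0.82 ± 0.17 log2 (adjusted p = 0.0207, limma). Leaving out D2 array 2 and D6 array 1, the arrays rich in oral epithelium transcripts, ACAN alone of the 20 passed in D2 against C.

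For the collagens and COMP, with which matrilins are built into cartilage, the differences from C were small beside that of MATN3. These genes were already dim in C, where COL9A1 had 5.35 and 5.48 log2, COL10A1 5.62 and 5.10 log2, and COMP 6.69 and 6.62 log2. The medians over all genes in the C arrays were 6.63 and 6.66 log2. Their distance from background is not known, so a deficit as large as that of MATN3 may not have been measurable in them. COL2A1, the collagen II chain, had 7.08 and 6.19 log2 in DT6, 6.93 and 6.85 log2 in D6, 6.69 and 6.77 log2 in D2, and 7.08 and 6.82 log2 in C, and differed by −0.31 log2 in DT6, −0.06 log2 in D6 and −0.22 log2 in D2 against C. COL9A1, a chain of collagen IX that binds MATN3, differed by −0.42 log2 in DT6, 0.06 log2 in D6 and 0.02 log2 in D2 against C. COMP differed by 0.04, 0.27 and 0.07 log2 in the same order, and COL10A1, the collagen of hypertrophic cartilage, by 0.03, −0.12 and −0.03 log2. None of these 4 genes passed, with adjusted p values of 0.259 or more (limma).

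**Figure D5:**
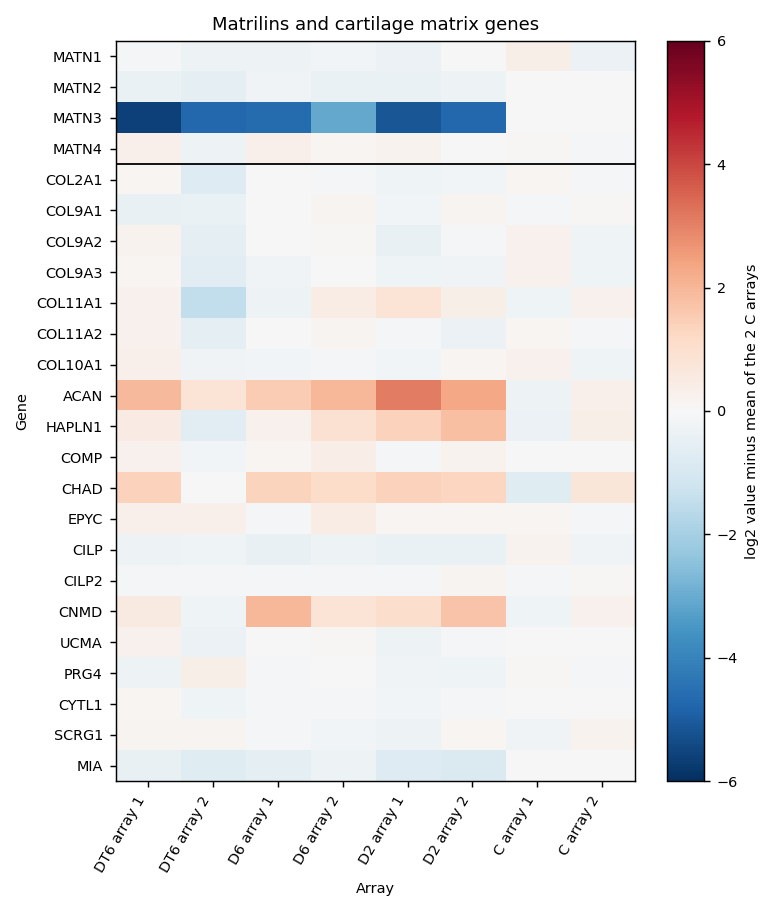
Log2 value minus the mean of the 2 C arrays for the 4 matrilins (above the line) and 20 cartilage matrix genes (below it) in each array; red is above C and blue is below it, on a scale from −6 to 6. MATN3 is the darkest row, while ACAN is above C in all 6 defect arrays and COL2A1, COL9A1 and COMP are close to 0.

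Of 12 measured regulators of cartilage, 1 rose in DT6 against C (2.29% of all genes rose), FGFR3, a fibroblast growth factor receptor of the growth plate, by 0.77 ± 0.16 log2 (adjusted p = 0.0408, limma). None passed in D6 or D2 (unadjusted p under 0.05 in 2 and 4 of them, limma), where 1.76% and 8.4% of all genes passed. FGFR3 did not pass without D2 array 2 and D6 array 1. SOX9, the transcription factor that drives cartilage formation, had 6.55 and 6.45 log2 in DT6, 6.24 and 6.52 log2 in D6, 6.55 and 6.68 log2 in D2, and 6.52 and 6.48 log2 in C. PTHLH, parathyroid hormone-related protein, had 3.18 and 3.17 log2 in DT6, 3.02 and 4.30 log2 in D6, 3.18 and 4.02 log2 in D2, and 4.56 and 4.49 log2 in C. Both C arrays were highest and D6 array 2 was next, as for MATN3. In 10.5% of all genes both C arrays were above all 6 defect arrays. PTHLH differed from C by −1.34 log2 in DT6, −0.86 log2 in D6 and −0.92 log2 in D2, and did not pass (adjusted p of at least 0.121, limma). Without D2 array 2 and D6 array 1, PTHLH fell in both DT6 and D2 against C (limma).

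Among 16 genes of matrilin binding partners, none passed in DT6 or D6 against C (unadjusted p under 0.05 in 4 and 5 of them, limma). Over all genes 3.04% passed in DT6 and 1.76% in D6. In D2 against C 3 of the 16 rose, where 5.66% of all genes rose. Beside ACAN these were BGN, the proteoglycan biglycan, by 1.12 ± 0.22 log2 (adjusted p = 0.0192, limma) and NID1, the basement membrane protein nidogen 1, by 0.62 ± 0.14 log2 (adjusted p = 0.0329, limma). Without D2 array 2 and D6 array 1, ACAN alone of the 16 passed in D2. DCN, decorin, differed by −0.24 log2 in DT6, 0.01 log2 in D6 and 0.19 log2 in D2 against C. BMP2, a growth factor that MATN3 protein can bind, differed by −0.59 log2 in DT6, −0.41 log2 in D6 and −0.58 log2 in D2, and did not pass (adjusted p of at least 0.0553, limma). DCN and BMP2 were picked out after their values were seen.

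Of 8 genes of proteases known to act on matrilins or on cartilage matrix, MMP13, the collagenase of bone and hypertrophic cartilage, rose against C in all 3 groups. It rose by 2.07 ± 0.26 log2 in DT6 (adjusted p = 0.00373, limma), 2.10 ± 0.26 log2 in D6 (adjusted p = 0.0112, limma) and 1.21 ± 0.26 log2 in D2 (adjusted p = 0.0238, limma). Over all genes 2.29% rose in DT6, 0.985% in D6 and 5.66% in D2. The rise in D2 did not pass without D2 array 2 and D6 array 1. The other 7 did not pass. ADAMTS4 and ADAMTS5, the aggrecanases that also cleave matrilins, differed in DT6 by 0.37 and −0.39 log2, in D6 by 0.44 and −0.61 log2, and in D2 by 0.48 and −0.41 log2. Of 10 other matrix genes with von Willebrand factor A domains, 1 rose in D2 against C, COL12A1, by 0.85 ± 0.21 log2 (adjusted p = 0.0399, limma), where 5.66% of all genes rose. None of the 10 passed in DT6 or D6 (unadjusted p under 0.05 in 2 and 4 of them, limma), where 3.04% and 1.76% of all genes passed. COL12A1 did not pass without D2 array 2 and D6 array 1. COCH, cochlin, which carries such domains too, was lower in every defect array than in C, an order seen in 10.5% of all genes. It had 6.33 and 4.79 log2 in DT6 and 6.05 and 5.42 log2 in D6. Its values were 5.10 and 5.32 log2 in D2 and 6.51 and 6.82 log2 in C, and it did not pass. Between the defect groups none of the 5 lists of cartilage matrix, regulators, partners, proteases and relatives had a member past the threshold, in limma. Over all genes 1.52% passed in DT6 against D6, 1.68% in D6 against D2 and 0% in DT6 against D2. At an unadjusted p under 0.05 the 5 lists had, in the order named, 2, 1, 1, 1 and 0 genes in DT6 against D6, 2, 0, 1, 1 and 1 in D6 against D2, and 5, 2, 5, 2 and 2 in DT6 against D2.

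The genes next to the matrilins in the dog genome were set beside them. In the RefSeq gene order of the assembly UU_Cfam_GSD_1.0, MATN3 lies between WDR35, a protein of ciliary transport, and LAPTM4A, a lysosomal membrane protein, with the syndecan gene SDC1 beyond LAPTM4A. LAPTM4A has relatives next to 2 other matrilins, LAPTM5 beside MATN1 and LAPTM4B beside MATN2, while MATN4 lies between SLPI and RBPJL. Syndecan genes lie with 1 gene between them and MATN1 (SDC3) or MATN4 (SDC4) too, and SDC2 is on another chromosome than MATN2. The genes on either side of MATN3 did not pass: WDR35 differed by −0.11 log2 in DT6, −0.07 log2 in D6 and 0.08 log2 in D2 against C, and LAPTM4A by −0.27 log2 in DT6, −0.18 log2 in D6 and −0.10 log2 in D2 (adjusted p of at least 0.496, limma). SDC1, a cell surface proteoglycan, rose by 1.00 ± 0.16 log2 in D6 (adjusted p = 0.0212, limma) and 0.99 ± 0.16 log2 in D2 (adjusted p = 0.00759, limma), and differed by 0.47 ± 0.16 log2 in DT6. These neighbours were chosen after the matrilin values were seen.

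Of the 6 pairs of matrilins, MATN2 and MATN3 had the most similar order over the arrays. Over all 8 arrays they had Pearson's r of 0.806 and Spearman's rho of 0.833, but within the 6 defect arrays these were 0.052 and 0.600. The other 5 pairs had r between −0.262 and 0.426 over 8 arrays. These are descriptions over few arrays of shared groups.

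The genes most like each member were taken as those with the highest Pearson's r over the 8 arrays among the genes (1071 for MATN3, 1072 for the others) whose SD over the arrays was at least 0.5 log2. For MATN3 the list was led by PTPRD, a receptor protein tyrosine phosphatase, with r of 0.989 over 8 arrays and 0.965 within the 6 defect arrays. PTPRD had 10.04 and 10.11 log2 in DT6, 10.20 and 10.71 log2 in D6, 10.02 and 10.23 log2 in D2, and 11.19 and 11.27 log2 in C, so D6 array 2 was again the highest defect array, with an SD over the 8 arrays of 0.52 log2 against 2.27 log2 for MATN3. It was followed by OR51L5, SGCE, which encodes epsilon-sarcoglycan, DTWD1 and GRB14, an adaptor of the insulin receptor, with r of 0.964 to 0.970 over 8 arrays and 0.621 to 0.834 within the defect arrays. For MATN2 the most alike were ADAMTSL3, a secreted matrix glycoprotein, with r of 0.957, then OR2AV12, CPNE5, the Wnt modulator DKK2 and FEZ1, with r of 0.874 to 0.923. Within the defect arrays their r ran from 0.432 for FEZ1 to 0.873 for OR2AV12. For MATN1 they were PEG10, OSR2, MBP, DNER and OR8B100, with r of 0.755 to 0.821. Each of these was, like MATN1, highest in C array 1. Spearman's rho over 8 arrays was 0.738 for PEG10 and 0.405 to 0.476 for the rest. Within the defect arrays r was 0.291 to 0.855. For MATN4 they were RHOA, KIAA1549L, OR7A23, SLC13A5 and GNAT3, with r of 0.779 to 0.849. Within the defect arrays r of these genes was 0.835 to 0.94. MATN4 itself had an SD of only 0.21 log2 over the 8 arrays. RHOA lay between 2.69 and 4.36 log2 and OR7A23 between 2.21 and 3.74 log2. These 2 genes, and OR51L5, OR2AV12 and OR8B100 above, lay below the lower quartile of all genes on every array (5.43 to 5.57 log2). Their distance from background is not known, so likeness to them may be noise of dim probe sets.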

How the data were processed

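The deposited table holds 1 summarised value per probe set for 8 Affymetrix whole-transcript arrays, 2 in each of 4 groups. Per the labels, total RNA was biotin-labelled without removal of ribosomal RNA. The deposited values were taken as log2, already normalised between arrays, from their range and near-equal medians. How they were summarised and normalised, and the base of the logarithm, is not stated by the labels, so fold changes assume base 2. Depth is not a property of arrays, and the number of arrays limits the precision. The platform annotation gave a single gene symbol for 16545 of the 22708 probe sets and several for 370, and it named none for 5793. For 516 genes with several probe sets the one with the highest mean was used, giving 15947 genes. Of the probe sets with 1 symbol, 15820 matched RefSeq genes by gene identifier, and 0 symbols changed.

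Group means were fitted to all 8 arrays with limma 3.58.1 in R 4.3.3 (lmFit, eBayes with a variance trend, 4 residual degrees of freedom), and p-values were adjusted by Benjamini-Hochberg over all genes, with a threshold of 0.05. For the matrilins the comparisons with C are descriptions. On simulated arrays for DT6 against D6 (15947 genes, 200 changed, 20 runs), 79.6% of 2-fold and 99.4% of 4-fold changes were recovered, and 7.13% of calls were false. These are averages over genes drawn at random, with independent noise at each gene's moderated SD. They do not give the recovery for MATN3, whose SE was 0.46 log2. Members and gene lists were chosen with earlier results of these data known. Named genes are the members, the 5 genes most like each, the 5 largest differences below C in each comparison, up to 4 called genes a list (up to 2 where none was called) and fixed cartilage genes; others are named as chosen later. Alternatives were no trend, quantile normalisation, a filter on dim genes, a replicate block, probe set means, the compared groups only, and arrays left out.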

Additional observations from a re-analysis of the deposited data

How the results depend on the processing

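MATN3 stayed below C under every alternative run. Several alternatives could change the SE and p-value of a matrilin difference but not the difference itself. These were no trend, the filter on dim genes, the replicate block, probe set means, the compared groups only, and leaving out an array outside the comparison. Much of the agreement in the counts that follow was therefore fixed in advance. Of 180 alternative values of the matrilins in comparisons between defect groups, 161 kept their direction and side of the threshold, 15 changed sign and 4 newly passed, all 4 for MATN3 with D6 array 1 left out; against C, 169 of 180 moved by less than the residual SD. With D2 array 2 and D6 array 1 both left out, MATN3 differed by 2.08 log2 in D6 against D2 (adjusted p = 0.0212, limma), −2.10 log2 in DT6 against D6 (adjusted p = 0.00742, limma) and −3.06 log2 in D6 against C. MATN1 then differed by 0.16 log2 in D6 against D2, −2e-04 log2 in DT6 against D6 and 0.16 log2 in DT6 against D2, and MATN4 by −0.11 log2 in D6 against D2. That setting left 534 genes past the threshold in D2 against C and 49 in D6 against C, against 1339 and 280 with all arrays. The filter on dim genes left 144 genes in DT6 against D6 and 173 in D6 against D2, and a fit to the compared groups only left 147 in DT6 against D6, against 243 and 268.

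Leaving out 1 array at a time, a lone array being assumed to vary like the other groups, gave these ranges in log2. In DT6 against D6 they were −0.0712 to 0.21 for MATN1, −0.31 to −0.10 for MATN2, −2.10 to −0.52 for MATN3 and −0.52 to 0.11 for MATN4, with 154 to 318 genes past the threshold. In D6 against D2 they were −0.26 to 0.092 for MATN1, −0.0196 to 0.17 for MATN2, 0.28 to 1.86 for MATN3 and −0.0165 to 0.24 for MATN4, with 145 to 315 genes. In DT6 against D2 they were −0.19 to 0.16 for MATN1, −0.23 to −0.02 for MATN2, −0.68 to 0.21 for MATN3 and −0.41 to 0.23 for MATN4, with 0 to 24 genes. In DT6 against C they were −0.52 to 0.15 for MATN1, −0.60 to −0.38 for MATN2, −5.60 to −4.71 for MATN3 and −0.32 to 0.32 for MATN4, with 127 to 719 genes. In D6 against C they were −0.59 to 0.0787 for MATN1, −0.38 to −0.19 for MATN2, −4.64 to −3.06 for MATN3 and 0.11 to 0.29 for MATN4, with 0 to 683 genes; the 0 came without C array 1, in limma, where 1986 genes had an unadjusted p under 0.05. In D2 against C they were −0.51 to 0.16 for MATN1, −0.42 to −0.31 for MATN2, −5.14 to −4.70 for MATN3 and −0.04 to 0.22 for MATN4, with 310 to 1940 genes. The causes of these shifts were not tested.

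The replicate numbers share only a number: deviations of same-numbered arrays correlated with r of −0.258 to 0.195. In this balanced design a replicate block cannot change a difference, only its SE and p-value. With the block, MATN3 had an adjusted p of 0.185 for −1.31 log2 in DT6 against D6 and 0.315 for 1.07 log2 in D6 against D2 (limma). The block gave 208 genes past the threshold in DT6 against D6 and 241 in D6 against D2.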
